A study of Homo sapiens with 9 samples.

Results

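Protein lipoylation attaches lipoic acid to a lysine of a few mitochondrial carrier proteins, and its genes were followed here as 10 transcripts in MDA-MB-231 cells, a mesenchymal human triple-negative breast cancer (TNBC) line. The members were taken by name from the raw count file: FDX1, LIAS, LIPT1, DLD, DLAT, PDHA1, PDHB, DBT, DLST and GCSH. They are 10 of 59453 gene names, and all 10 were among the 16556 genes with enough counts to be tested. RNA-Seq had been run on 3 groups of 3 replicates: untreated cells, cells given the copper chelator TEPA for 8 h, and cells given TEPA for 24 h. All groups are the same unmodified line in the same serum-containing medium, and the labels give a TEPA concentration of 8 mM. The sequencing methods give 4 mM and the cell treatment methods list both 4 and 8 mM, so the dose is uncertain. Whether replicates came from separate cultures is not stated, so p-values measure the spread between these libraries only. Both TEPA comparisons use the same 3 untreated libraries. With no separate untreated group for each time, time in culture and hours of TEPA cannot be told apart.

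In this pathway an octanoyl group is made by mitochondrial fatty acid synthesis, passed to a carrier protein, and turned into lipoate by lipoyl synthase (LIAS), an iron-sulfur enzyme that draws electrons from ferredoxin (FDX1). The finished lipoyl group is carried by the H protein of glycine cleavage and by the acyltransferase cores of the 2-oxoacid dehydrogenases, which feed carbon into the tricarboxylic acid cycle. Cuproptosis is a form of cell death in which excess copper binds lipoylated proteins, above all DLAT, and destabilizes iron-sulfur proteins. A copper chelator removes the metal that starts this process, and the comparison asks whether the transcripts of this machinery moved in cells given TEPA. Copper itself was not measured in these libraries.

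The lysine that receives lipoate is shown for the 4 lipoylated members, since it is the feature that joins them and the place where copper is held. The sequences were read from the reference transcripts of GENCODE release 44 (hg38), 45 bases each, with the lysine codon in capitals and the number giving the position of that lysine in the precursor protein.
DLAT_132: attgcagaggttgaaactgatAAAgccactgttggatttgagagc
DLAT_259: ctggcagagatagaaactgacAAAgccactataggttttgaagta
DBT_105: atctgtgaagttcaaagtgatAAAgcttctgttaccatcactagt
DLST_110: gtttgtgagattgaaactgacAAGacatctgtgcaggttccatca
GCSH_107: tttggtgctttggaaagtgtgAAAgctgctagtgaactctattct

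DLAT carries a pair of lipoyl domains, and the windows around their lysines shared 11 of 15 encoded residues and 33 of 45 bases. The DBT window shared 8 of 15 residues with the first DLAT site, and the DLST window shared 7 with it. GCSH shared 3 or 4 of 15 residues and 21 to 24 of 45 bases with each of the other windows. DBT and the second DLAT site were no closer, with 4 of 15 residues and 19 of 45 bases. The codons lie in exon 3 of 14 (chr11:112028527-112028529, plus strand) and exon 5 (chr11:112033518-112033520) for DLAT, and in exon 4 of 11 (chr1:100230851-100230853, minus strand) for DBT. They lie in exon 6 of 15 (chr14:74889950-74889952, plus strand) for DLST and in exon 4 of 5 (chr16:81084566-81084568, minus strand) for GCSH.

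Library totals lay between 34633755 and 49342659 counts, of which the members together took 0.0768 to 0.0877% of them. The share of counts from mitochondrially encoded genes was 3.61 to 4.02% in the TEPA 8 h libraries, against 1.79 to 2.91% in untreated and 1.89 to 2.02% in TEPA 24 h libraries. The MDA-MB-231 markers VIM, CD44, AXL, CAV1 and MSN were high (VIM at 3674 ± 124 CPM in untreated cells, SD, n = 3, where CPM is the count scaled to the effective library size), PGR was at 0 counts, and ESR1 had 2 to 9 counts. GATA3, a luminal marker, was not absent (10.6 CPM in untreated cells). HAND2, OLIG2 and SOX10, markers of the neural tumor lines of the same study, were at 0 counts in all 9 libraries. GFAP had 1 to 8 counts, PTPRC 0 to 5 and COL3A1 0 to 12. PECAM1 (3.59, 1.06 and 8.13 CPM in untreated, 8 h and 24 h cells) and COL1A1 (13.7, 32.4 and 18.0 CPM) moved with treatment, and their part in the results was not tested. In bulk RNA, fewer cells of a kind and less RNA per cell cannot be told apart.

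As a list, the members were called in shares near those of all genes. In TEPA 8 h against untreated cells, 3 of 10 members fell (DLAT, PDHB and DLST), where 24.5% of all tested genes fell, and 1 rose (LIAS), where 25.2% of all tested genes rose. In TEPA 24 h against untreated cells, 3 fell (DLAT, PDHA1 and DLST) beside 26.8% of all genes, and 3 rose (LIAS, LIPT1 and DBT) beside 25.7%. From 8 h to 24 h, 1 fell (DLAT) beside 28.8% and 4 rose (FDX1, DLD, PDHB and DBT) beside 26.0%. A gene was called when its adjusted p was under 0.05 in the quasi-likelihood test of edgeR, with Benjamini-Hochberg adjustment across the 16556 genes. The members' median log2 fold changes were -0.06, -0.02 and 0.13 in the 3 comparisons, against -0.0013, 0.0023 and -0.016 over all genes. The groups did not overlap in CPM for 6 of 10 members in each comparison, where 57.8%, 57.2% and 62.0% of all genes did not overlap. A log2 fold change beyond 0.5 was met by LIAS at both times and by no other member. The share of all genes beyond this limit was not counted, so whether this is few or many is not known. The summed CPM of the members was 865 to 870 in untreated cells, 787 to 822 at 8 h and 828 to 844 at 24 h. In these scaled values the 3 groups did not overlap and the 8 h group was lowest. As an unscaled share of counts, the untreated libraries (0.0854 to 0.0862%) overlapped the 24 h ones (0.0844 to 0.0877%). The 8 h libraries (0.0768 to 0.0808%) were below both.

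**Figure D1:**
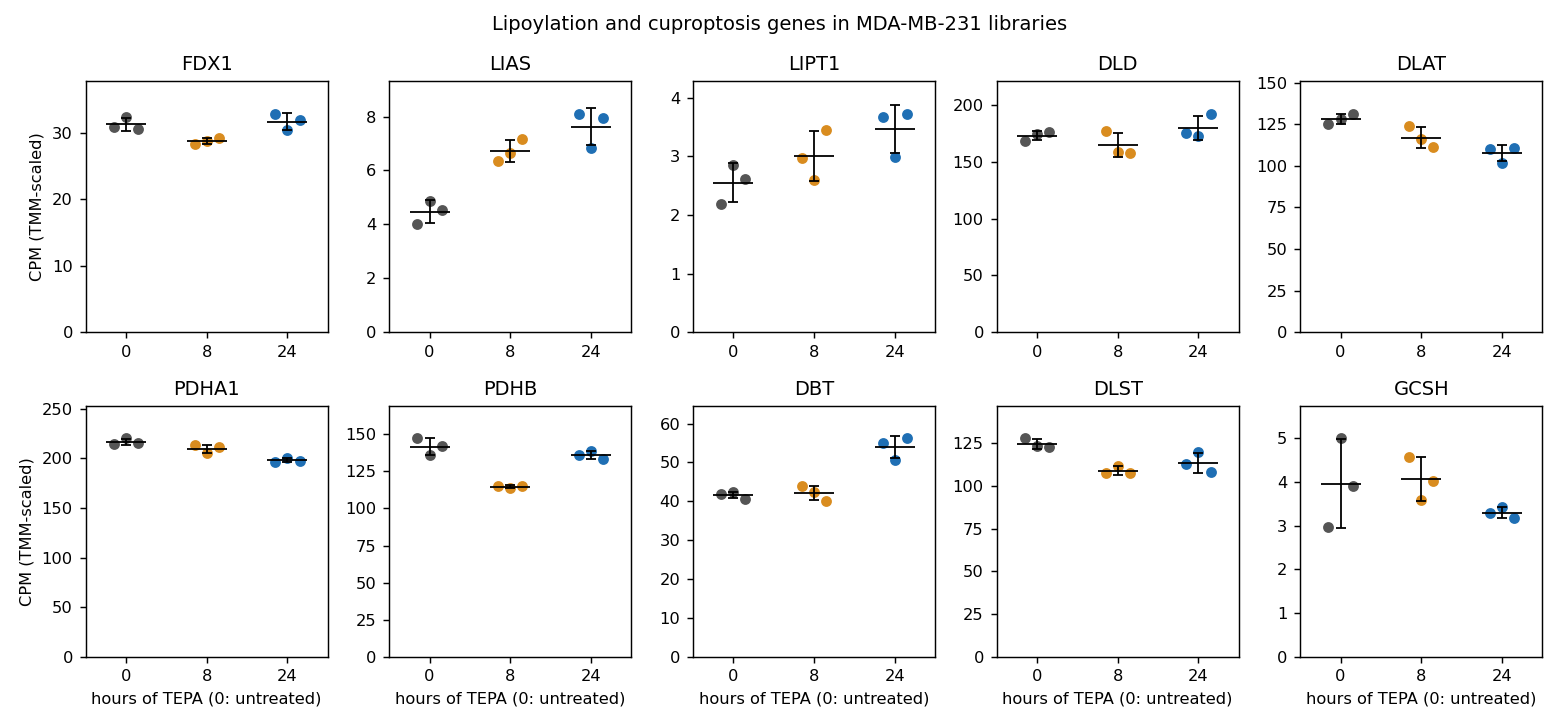
Expression of the 10 members in each library, in TMM-scaled CPM (vertical axes from 0), against hours of TEPA (0 is untreated). Points are libraries, and the horizontal bars with whiskers give the mean and SD of 3 replicates; LIAS lies between 4.03 and 4.86 CPM in untreated libraries and at 6.35 CPM or above in all 6 TEPA libraries.

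FDX1 encodes the mitochondrial ferredoxin that supplies electrons for lipoate synthesis and that can reduce copper ions (chromosome 11, 110429948 to 110464884, plus strand, 4 exons). Its level was 30.9, 32.4 and 30.7 CPM in the untreated replicates, 28.4, 28.8 and 29.2 CPM at 8 h, and 32.9, 30.4 and 31.9 CPM at 24 h. All 8 h libraries thus lay below all untreated libraries, while the 24 h libraries overlapped them. The log2 fold change at 8 h was -0.12 ± 0.05 (SE, 95% interval -0.23 to -0.02), with an unadjusted p of 0.028 and an adjusted p of 0.055 (edgeR), which missed the threshold. The call was made with RLE factors (adjusted p = 0.0462) and with mitochondrially encoded genes left out (adjusted p = 0.0483, edgeR). At 24 h the log2 fold change was 0.02 ± 0.05 (interval -0.09 to 0.12). FDX1 rose from 8 h to 24 h by 0.14 ± 0.05 on the log2 scale, or 10.3% (adjusted p = 0.025), and this call held in 2 of 6 fits that each left out 1 library, with adjusted p from 0.0134 to 0.12.

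Among 11910 genes with a mean of at least 100 counts, the log2 CPM profiles most like that of FDX1 over the 9 libraries were those of EXOC6 (Pearson r = 0.955), an exocyst subunit, and TOPORS (r = 0.933), a ubiquitin and SUMO ligase. GNG11, PLPP6 and SNRK followed at r = 0.908 each. The libraries fall into 3 groups, so these values mainly describe the order of the group means, and the log2 fold changes at 8 h were -0.09 for EXOC6, -0.20 for TOPORS, -0.56 for GNG11, -0.42 for PLPP6 and -0.18 for SNRK.

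LIAS, the lipoyl synthase that inserts sulfur into the octanoyl chain, was the member that changed most (chromosome 4, 39459004 to 39485109, plus strand). Its level was 4.03, 4.86 and 4.54 CPM in untreated cells, 6.35, 6.64 and 7.16 CPM at 8 h, and 8.10, 6.83 and 7.95 CPM at 24 h. Every TEPA library was above every untreated library, and the TEPA groups overlapped each other. LIAS was upregulated by 49.5% at 8 h (log2 fold change 0.58 ± 0.10, adjusted p = 2.6e-04) and by 70.0% at 24 h (0.77 ± 0.10, adjusted p = 1.2e-05). Both calls held in all 6 fits that left out 1 library (0.51 to 0.64 and 0.70 to 0.84). Its start lies 73 bases from that of RPL9, a ribosomal protein gene on the opposite strand, whose log2 fold changes were 0.11 at 8 h (adjusted p = 0.021) and -0.02 at 24 h. LIAS counts were 151 to 413 per library, so counting error alone was 4.92 to 8.14%, and the annotation places a pseudogene on the same strand within the gene.

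LIPT1 encodes the lipoyltransferase that moves lipoate from the H protein to the dehydrogenase cores (chromosome 2, 99154955 to 99163157, plus strand). Its level was 2.19, 2.85 and 2.61 CPM in untreated cells, 2.97, 2.59 and 3.46 CPM at 8 h, and 3.67, 2.99 and 3.73 CPM at 24 h. The 24 h libraries were all above the untreated ones, by a narrow margin, and the 8 h libraries overlapped both. LIPT1 was upregulated at 24 h by 35.1% (log2 fold change 0.43 ± 0.15, adjusted p = 0.02), and its 8 h value was 0.23 ± 0.15 (adjusted p = 0.22). The 24 h call held in 3 of 6 fits, and was lost without untreated replicate 1 (0.34, adjusted p = 0.068), TEPA 24 h replicate 1 (0.38, adjusted p = 0.0805) or TEPA 24 h replicate 3 (0.38, adjusted p = 0.0651). With 82 to 187 counts a library the counting error was up to 11%. In the GENCODE annotation, 2 other protein-coding genes overlap LIPT1 on its own strand, so reads in shared exons may not be assigned to it.

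**Figure D2:**
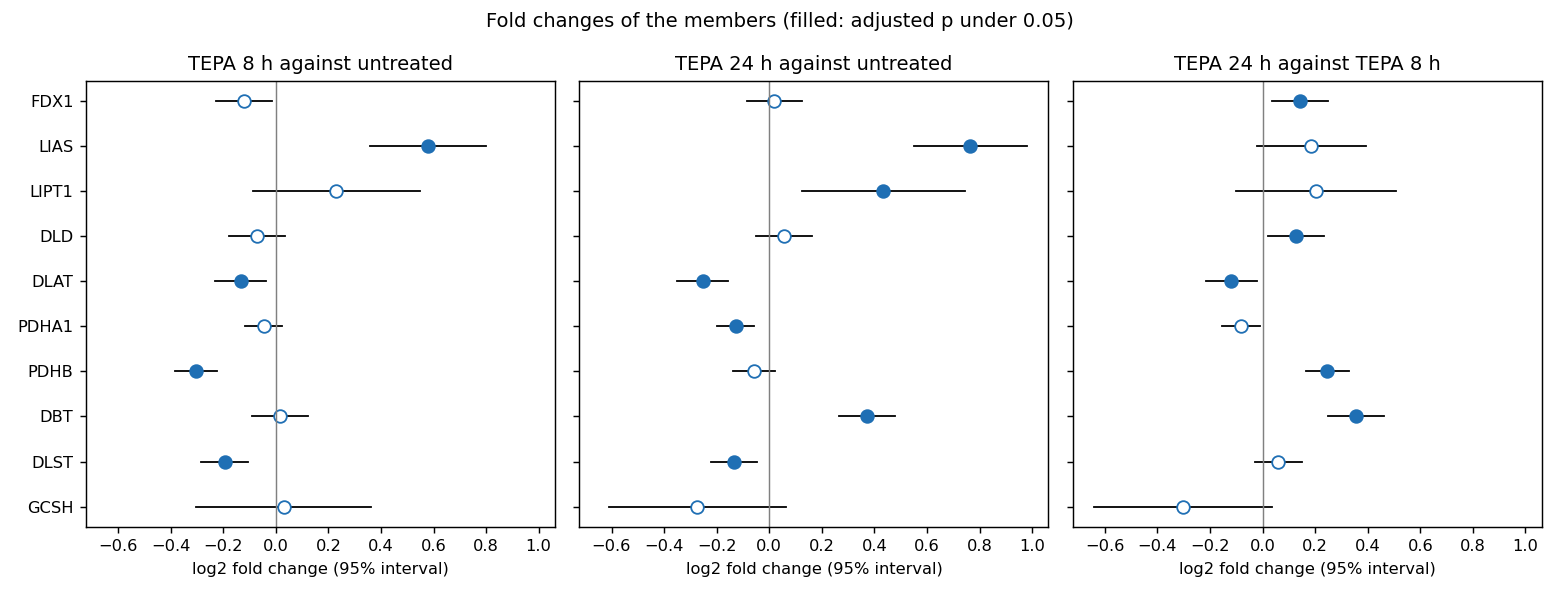
Log2 fold changes (horizontal axes) of the 10 members in the 3 comparisons, with 95% intervals as lines and filled circles where the adjusted p was under 0.05. LIAS is to the right at both TEPA times, at 0.58 and 0.77, PDHB is to the left at 8 h, at -0.30, and DBT is to the right at 24 h, at 0.37.

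The lipoylated carriers did not move together. DLAT, the acyltransferase core of pyruvate dehydrogenase and the carrier most tied to cuproptosis, was downregulated at both times, as was DLST, while DBT was upregulated at 24 h and GCSH passed no test. DLAT (chromosome 11, 112025408 to 112064404, plus strand) was at 125, 128 and 131 CPM in untreated cells, 124, 116 and 111.1 CPM at 8 h, and 110.3, 102 and 110.8 CPM at 24 h. The 3 groups did not overlap and descended in order of time. DLAT fell by 8.88% at 8 h (log2 fold change -0.13 ± 0.05, adjusted p = 0.023) and by 16.1% at 24 h (-0.25 ± 0.05, adjusted p = 2.4e-04). The 24 h call held in all 6 fits without 1 library (-0.27 to -0.22). The 8 h call was lost without untreated replicate 3 (adjusted p = 0.0733), TEPA 8 h replicate 2 (0.0637) or TEPA 8 h replicate 3 (0.108). The step from 8 h to 24 h (-0.12 ± 0.05, adjusted p = 0.038) was called in 2 of 6 such fits, being lost without TEPA 8 h replicate 1 or 2 or TEPA 24 h replicate 1 or 2 (adjusted p = 0.224, 0.083, 0.0514 and 0.172).

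DLST, the succinyltransferase core of 2-oxoglutarate dehydrogenase (chromosome 14, 74881891 to 74903743, plus strand), was at 128, 123 and 123 CPM in untreated cells. It was at 107, 112 and 107 CPM at 8 h and at 113, 119.6 and 108 CPM at 24 h. All TEPA libraries were below all untreated ones. DLST fell by 12.6% at 8 h (log2 fold change -0.19 ± 0.04, adjusted p = 0.0012) and by 8.9% at 24 h (-0.13 ± 0.04, adjusted p = 0.013). The 8 h call held in all 6 fits, and the 24 h call did not survive leaving out TEPA 24 h replicate 3 (-0.10, adjusted p = 0.0612). Between 8 h and 24 h the difference was 0.06 ± 0.04 (interval -0.03 to 0.15).

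DBT, the acyltransferase core of branched-chain 2-oxoacid dehydrogenase, which degrades leucine, isoleucine and valine (chromosome 1, 100186919 to 100249834, minus strand), rose at 24 h. Its level was 42.0, 42.3 and 40.7 CPM in untreated cells, 43.9, 42.4 and 40.1 CPM at 8 h, and 55.0, 50.7 and 56.2 CPM at 24 h. The 24 h libraries were above all the others, and the 8 h and untreated libraries overlapped. DBT was upregulated at 24 h by 29.4% against untreated cells (log2 fold change 0.37 ± 0.05, adjusted p = 1.3e-05) and by 28.0% against 8 h (0.36 ± 0.05, adjusted p = 1.9e-05). Both calls held in all 6 fits without 1 library. At 8 h the log2 fold change was 0.02 ± 0.05 (interval -0.09 to 0.12).

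GCSH, the H protein that carries lipoate in glycine cleavage and hands it on to the other carriers (chromosome 16, 81081945 to 81096395, minus strand), had few counts, 111 to 228 a library. It was at 2.96, 4.99 and 3.91 CPM in untreated cells, 4.57, 3.58 and 4.03 CPM at 8 h, and 3.28, 3.43 and 3.17 CPM at 24 h. The untreated replicates spanned the values of all 6 TEPA libraries, and the 24 h libraries were below the 8 h ones. The log2 fold change was 0.03 ± 0.16 at 8 h (interval -0.30 to 0.36) and -0.27 ± 0.16 at 24 h (-0.61 to 0.06, adjusted p = 0.16). The 24 h value passed the test without untreated replicate 1 (-0.44, adjusted p = 0.0109). The processed pseudogene GCSHP5 had 83 to 128 counts a library, and 2 protein-coding genes overlap GCSH on its strand, so its reads are uncertain. With the counts of GCSH and GCSHP5 summed, a choice made after their counts were seen, the change at 24 h was -0.30 (adjusted p = 0.0367).

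Pyruvate dehydrogenase begins with a decarboxylase made of alpha and beta chains, encoded by PDHA1 and PDHB, of which PDHB fell at 8 h and PDHA1 at 24 h. PDHA1 (chromosome X, 19343893 to 19361718, plus strand) was at 214, 220.1 and 215 CPM in untreated cells, 213, 205 and 211 CPM at 8 h, and 197, 201 and 197 CPM at 24 h. The 24 h libraries were below all the others, and the 8 h libraries lay just below the untreated ones. PDHA1 fell by 8.49% at 24 h (log2 fold change -0.13 ± 0.03, adjusted p = 0.0045), in all 6 fits without 1 library, and its value at 8 h was -0.05 ± 0.03 (adjusted p = 0.27).

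PDHB (chromosome 3, 58427630 to 58433857, minus strand) was at 147, 136 and 142 CPM in untreated cells, 115, 114 and 115 CPM at 8 h, and 136, 139 and 133 CPM at 24 h. The 8 h libraries were tightly grouped below all the others, and the 24 h libraries overlapped the untreated ones. PDHB fell by 19.0% at 8 h (log2 fold change -0.30 ± 0.04, adjusted p = 8.6e-06) and rose again by 18.6% from 8 h to 24 h (0.25 ± 0.04, adjusted p = 5.1e-05). At 24 h its log2 fold change against untreated cells was -0.06 ± 0.04 (interval -0.14 to 0.02). The calls at 8 h and between times held in all 6 fits without 1 library. The 8 h value was -0.28 to -0.34 in those fits, and -0.29 to -0.32 in the fits with another scaling, test, filter or sample set, among them the one without mitochondrially encoded genes.

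DLD, the dihydrolipoamide dehydrogenase that reoxidizes the lipoyl group in all of these complexes (chromosome 7, 107891162 to 107931730, plus strand), was at 168, 175 and 176 CPM in untreated cells. It was at 177, 159 and 158 CPM at 8 h and at 175, 172 and 192 CPM at 24 h, with overlap between all groups. Against untreated cells its log2 fold changes were -0.07 ± 0.05 and 0.06 ± 0.05 at the 8 h and 24 h times, with adjusted p of 0.25 and 0.36. It rose from 8 h to 24 h by 9.27% (0.13 ± 0.05, adjusted p = 0.04). Without any 1 of TEPA 8 h replicates 2 and 3 and TEPA 24 h replicates 1 and 3, that call was not made (adjusted p = 0.139, 0.147, 0.0513 and 0.19). The 8 h value passed the test without TEPA 8 h replicate 1 (-0.13, adjusted p = 0.0398).

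Ratios of counts within a library do not depend on the scaling of libraries. The PDHB to PDHA1 ratio was 0.687, 0.617 and 0.660 in untreated cells, 0.541, 0.555 and 0.546 at 8 h, and 0.693, 0.690 and 0.676 at 24 h, so that the 8 h libraries stood below the rest. The DLAT to PDHA1 ratio was 0.593 ± 0.0156 in untreated cells, 0.558 ± 0.0278 at 8 h and 0.544 ± 0.0311 at 24 h (SD, n = 3). The LIAS to FDX1 ratio was 0.143 ± 0.0109, 0.233 ± 0.0107 and 0.240 ± 0.0133, and the DBT to DLST ratio was 0.335 ± 0.00774, 0.387 ± 0.0190 and 0.477 ± 0.0492. In each of these 4 ratios the 8 h group did not overlap the untreated group (exact two-sided permutation p = 0.1, the smallest that 3 against 3 can give). At 24 h the same held for all but PDHB to PDHA1 (exact p = 0.2). No such share was computed over other gene pairs, and 57.8% and 57.2% of single genes did not overlap at 8 h and 24 h. Each pair holds a member called above at 8 h, so these separations are not separate evidence.

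**Figure D3:**
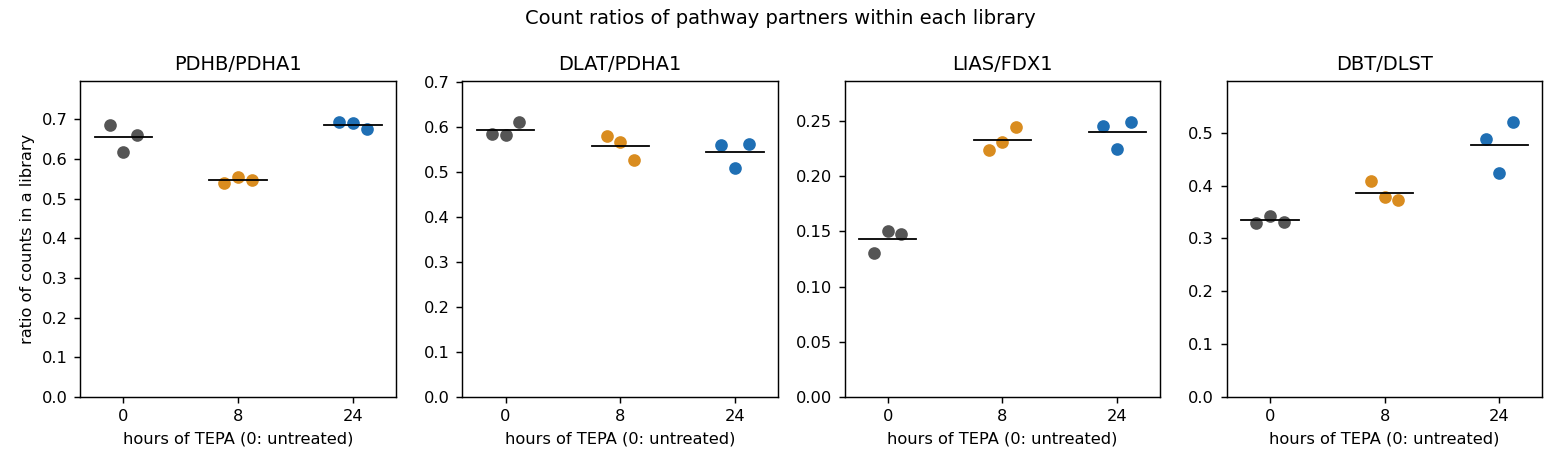
Ratios of raw counts of pairs of members within each library (vertical axes from 0) against hours of TEPA (0 is untreated), with points for libraries and bars for the mean of 3. DBT and DLST belong to different complexes. PDHB to PDHA1 dips to 0.541 to 0.555 at 8 h, while LIAS to FDX1 is at 0.224 or above in all TEPA libraries and at 0.150 or below in untreated ones.

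Levels were compared between genes as CPM per kilobase of the reference transcript. In untreated cells the order was PDHB (94.0 ± 3.79), PDHA1 (64.6 ± 0.928), DLD (48.9 ± 1.13), DLST (44.3 ± 0.991), DLAT (33.1 ± 0.778), FDX1 (9.96 ± 0.300), DBT (3.86 ± 0.0772), GCSH (2.53 ± 0.652), LIPT1 (2.01 ± 0.264) and LIAS (1.25 ± 0.118). Neighbours in this order did not overlap, except GCSH and LIPT1. LIAS, LIPT1 and GCSH were the lowest by both lengths used, each below DBT in all groups. At 24 h LIPT1 (2.73 ± 0.324) came before LIAS (2.14 ± 0.194) and GCSH (2.11 ± 0.0834), and the last pair overlapped. The order of the top genes depends on the length used: per kilobase of all annotated exons, PDHA1 (43.7) and DLD (33.9) came before PDHB (30.0) in untreated cells.

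**Figure D4:**
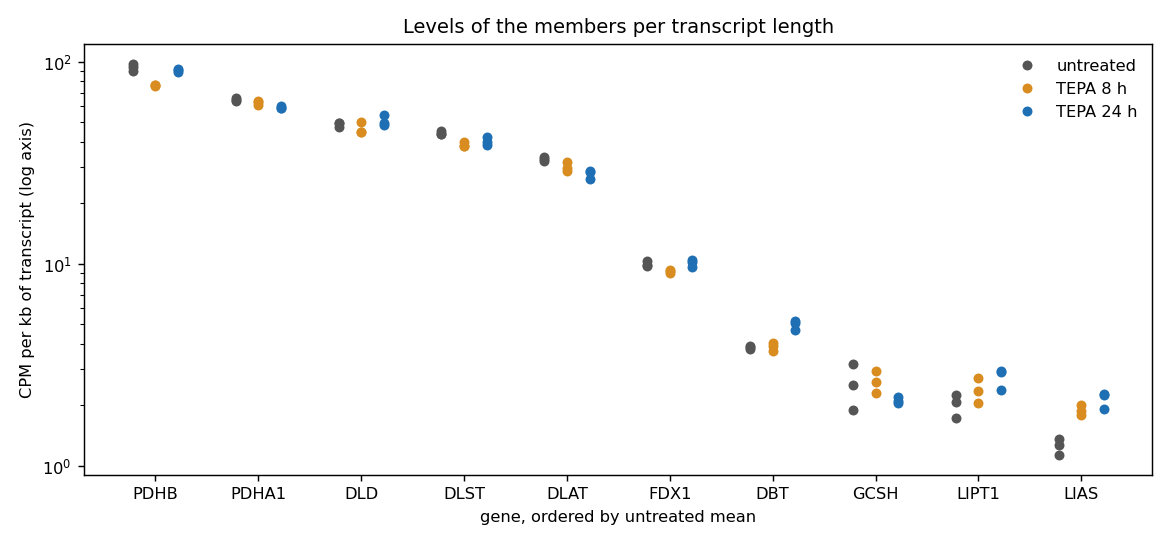
Levels of the members in CPM per kilobase of reference transcript (vertical log axis) for each library of the 3 groups, with genes ordered by the untreated mean. The levels run from 94.0 for PDHB to 1.25 for LIAS in untreated cells, and LIAS moves up to 2.14 at 24 h.

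The genes around the members were described from lists of the same pathway, of which the tested genes are counted, with the share of all tested genes called in that direction in parentheses. Of 9 tested genes that make or transfer octanoate, supply S-adenosylmethionine to LIAS or remove lipoyl groups (SIRT4), 2 fell (24.5%) and 0 rose (25.2%) at 8 h. At 24 h 2 fell (26.8%) and 3 rose (25.7%), and the median log2 fold changes were -0.10 at 8 h and 0.11 at 24 h. LIPT2, which passes the octanoyl group to the H protein, fell at 8 h (-0.54 ± 0.20, adjusted p = 0.034), at 34 to 83 counts a library. HSD17B8, which forms the ketoacyl reductase of mitochondrial fatty acid synthesis with CBR4, fell at 24 h (-1.37, adjusted p = 9.6e-07), from 3.94 to 1.52 CPM. CBR4 itself fell at 8 h (-0.42) and rose at 24 h (0.25). NDUFAB1, the acyl carrier protein, fell at 24 h (-0.29), and SLC25A26, which imports the S-adenosylmethionine that LIAS consumes, rose (0.44). HTD2, with 0 to 6 counts, and ACSM1, at 0 counts, were not tested.

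Among 19 ferredoxin partners and iron-sulfur assembly genes, 1 fell (24.5%) and 3 rose (25.2%) at 8 h, and 5 fell (26.8%) and 6 rose (25.7%) at 24 h, with median log2 fold changes of -0.01 and -0.02. BOLA3, which helps deliver iron-sulfur clusters to LIAS, changed most, from 71.7 CPM in untreated cells and 73.9 CPM at 8 h to 31.5 CPM at 24 h (log2 fold change -1.19, adjusted p = 5.5e-10). For NFU1, its partner in that delivery, the 24 h value was -0.06 on the log2 scale (adjusted p = 0.15). GLRX5 (-0.24) and HSPA9 (-0.26) also fell at 24 h, whereas the cysteine desulfurase NFS1 (0.42) and the scaffold ISCU (0.29) rose. FDXR, the reductase of FDX1, had log2 fold changes of -0.13 and -0.07 with adjusted p of 0.12 and 0.4.

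Of 7 tested further subunits of the lipoate-dependent complexes, 3 fell (24.5%) and 0 rose (25.2%) at 8 h, and 1 fell (26.8%) and 2 rose (25.7%) at 24 h, with median log2 fold changes of -0.16 and -0.08. DHTKD1, the decarboxylase of 2-oxoadipate dehydrogenase, fell at 8 h (-0.16) and rose at 24 h (0.34), and BCKDHB, a partner of DBT, did the same (-0.24 and 0.31). PDHX, which tethers DLD to the pyruvate dehydrogenase core, had log2 fold changes of -0.04 and -0.09 (adjusted p = 0.64 and 0.23). OGDHL, at 4 to 28 counts, fell at 24 h (-1.38, adjusted p = 0.0095). AMT and GLDC, the partners of GCSH, had 1 to 11 and 2 to 11 counts and were not tested, and PDHA2 was at 0 counts.

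Of 12 genes that regulate the dehydrogenases, carry pyruvate into mitochondria or carboxylate it (PC), 7 fell (24.5%) and 2 rose (25.2%) at 8 h. At 24 h 3 fell (26.8%) and 7 rose (25.7%), and the median log2 fold change went from -0.16 at 8 h to 0.23 at 24 h. PDK1, an inhibitory kinase of pyruvate dehydrogenase, fell at both times (-0.50 and -0.17), PDK2 fell and then rose (-0.27 and 0.29), and PDK4 rose at 24 h (0.58, adjusted p = 0.0024). The activating phosphatase PDP2 rose at both times (0.32 and 0.51). The pyruvate carrier subunits MPC1 (-0.22 and 0.18) and MPC2 (-0.21 and 0.28) and pyruvate carboxylase PC (-0.23 and 0.33) fell at 8 h and rose at 24 h, in 6 calls. BCKDK, the kinase that inhibits the branched-chain complex, fell at 24 h (-0.32) and its phosphatase PPM1K rose (0.39).

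Of 14 tricarboxylic acid cycle genes, 7 fell (24.5%) and 3 rose (25.2%) at 8 h, and 6 fell (26.8%) and 1 rose (25.7%) at 24 h, with medians of -0.11 and -0.08. SUCLG2 (-0.29 and -0.62) and FH (-0.12 and -0.41) fell at both times, and SUCLA2, the other nucleotide form of succinyl-CoA ligase, rose at 24 h (0.35). The list of copper transporters and cuproptosis modifiers is reported here only in part. The copper importer SLC31A1 fell at both times (-0.14 and -0.13), the exporter ATP7A rose at 24 h (0.42) and ATP7B fell (-0.24). MTF1, the metal-responsive transcription factor, rose at 24 h (0.22) and CDKN2A was at 0 counts. The metal-responsive metallothioneins MT1X (-1.06 and -1.84), MT2A (-1.15 and -1.60) and MT1E (-1.30 and -2.39) all fell at both times in the same libraries.

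**Figure D5:**
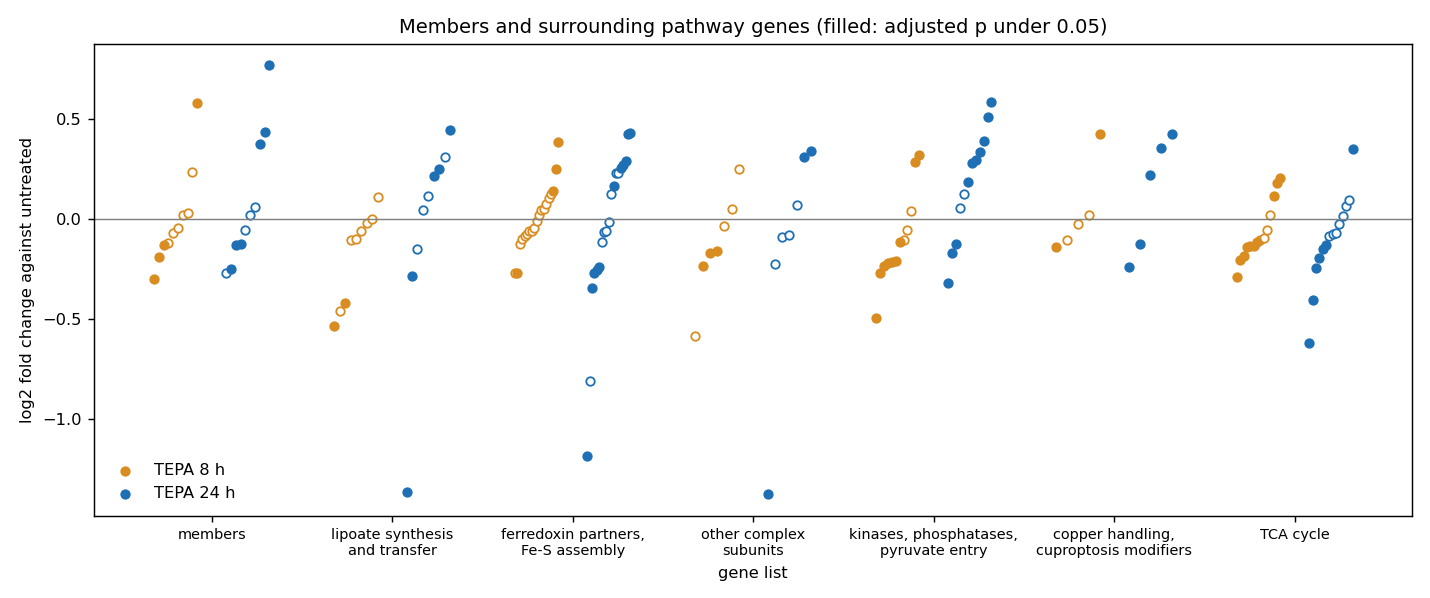
Log2 fold changes against untreated cells (vertical axis) of the members and of the tested genes of 6 surrounding lists, at 8 h in orange and 24 h in blue, filled where the adjusted p was under 0.05. The members stay between -0.30 and 0.77, while BOLA3, HSD17B8 and OGDHL lie below -1 at 24 h; the kinase, phosphatase and pyruvate entry list has its median at -0.16 at 8 h and 0.23 at 24 h.

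The 250 bases before the RefSeq starts of the members (GRCh38.p14) were searched for GCGCATGC on both strands, the letters of an NRF1-type motif. One of the starts of DLD held a match, 21 bases before the start, and 924 of 35116 RefSeq promoter windows (2.63%) held one.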

How the data were processed

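Polyadenylated RNA of MDA-MB-231 cells was sequenced as paired reads of a stranded library. The authors checked reads with FastQC, aligned them to hg38 with HISAT2 and counted read pairs per gene name over exons, with strand, by featureCounts and Ensembl release 103 (other versions are not given in the sources used here). The deposited values are raw counts, 1 column per replicate. The TEPA concentration is 8 mM in the labels and 4 mM in the sequencing methods, and the cell treatment methods list both.

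Genes were filtered with filterByExpr (minimum count 10), leaving 16556 with 99.95% of counts, scaled by TMM (factors 0.978 to 1.04) and fitted in edgeR 4.0.16 (R 4.3.3) by quasi-likelihood with all 9 libraries and group as the only term. Adjusted p-values are Benjamini-Hochberg values across the tested genes. Standard errors are the log2 fold change over the square root of F. The biological coefficient of variation was 0.0481. Alternatives were DESeq2 1.42.0, scaling by RLE or upper quartile, other filters, a log2 limit of 0.5, left-out libraries and genes, and a replicate block. The script was tested on simulated data. Positions came from GENCODE 44, and its transcripts gave the lengths. All members are named, as are genes of the lists, markers (some of both are not reported here) and the 5 genes most like FDX1. Members and lists were chosen with earlier results of these data known.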

Additional observations from a re-analysis of the deposited data

Results flagged for a closer look

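For 5 of 10 members the level differed between the TEPA 8 h and TEPA 24 h groups by the edgeR test. Without untreated cells matched to each time, a difference due to time in culture cannot be told apart from one due to TEPA. Over all tested genes 28.8% were lower and 26.0% higher at 24 h than at 8 h, so a count of 5 is near the general rate. The level at 24 h less that at 8 h, on the log2 scale, was 0.356 for DBT (adjusted p = 1.9e-05) and 0.246 for PDHB (adjusted p = 5.1e-05). It was 0.141 for FDX1 (adjusted p = 0.025), 0.128 for DLD (adjusted p = 0.04) and -0.119 for DLAT (adjusted p = 0.038). The 8 h and 24 h libraries did not overlap for DBT, PDHB, FDX1 and DLAT and overlapped for DLD. DBT and PDHB kept the call in all 6 fits without 1 library, and FDX1, DLD and DLAT were each called in 2 of 6. DLAT also lost it with RLE factors (adjusted p = 0.0595), upper-quartile factors (0.068), DESeq2 (0.0669), only the groups compared (0.104) and the replicate block (0.0532), and DLD lost it with the block (0.058). The share of mitochondrially encoded counts was 3.61 to 4.02% at 8 h and 1.89 to 2.02% at 24 h, and its part in these differences was not tested. Leaving those genes out kept the 5 calls. That fit changes only which counts enter the scaling and the model, so it cannot decide the question.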

How the results depend on the processing

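No value changed direction among called results. With a log2 limit of 0.5, 0 members fell and 1 rose at 8 h, 0 fell and 1 rose at 24 h, and 0 fell and 0 rose from 8 h to 24 h. The share of all genes beyond this limit was not counted. The single fall from 8 h to 24 h, of DLAT, was lost (0 members) with RLE factors, upper-quartile factors, DESeq2 (adjusted p = 0.0669) and only the groups compared, and 2 members fell with GCSH and GCSHP5 summed, GCSH at -0.35 (adjusted p = 0.0172). Without 1 library, the members that fell from 8 h to 24 h numbered 0 to 1 and those that rose 2 to 5, the highest when LIAS joined without TEPA 24 h replicate 2 (0.26, adjusted p = 0.0449). At 8 h 2 to 4 fell and 1 rose, and at 24 h 2 to 4 fell and 2 to 3 rose.

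With the replicate block, 0 members fell from 8 h to 24 h (DLAT, adjusted p = 0.0532) and DLD lost its rise (adjusted p = 0.058); no other call of a member changed. Calls over all genes went from 8216 to 7779, 8688 to 8355 and 9079 to 8758. Libraries with the same number did not deviate together (correlations -0.0801 to 0.0383), which cannot show whether they were prepared together. Within groups, untreated replicates 1 and 2 were the least alike pair. Their mean chi-square per gene was 21.4, against 2.38 to 8.65 for the other pairs. Another scaling moved the median of all genes by at most 0.0265. Of 270 member values under the other alternatives, 260 kept their side of the threshold, as did 158 of 180 without 1 library. LIPT1, GCSH and LIAS had 82 to 413 counts a library, and counting error of up to 11%, 9.49% and 8.14% is the least error of their single values.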
